A study of Mus musculus with 12 samples.

Results

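The genes described here are 33 genes of cholesterol and fatty acid synthesis, chosen by name, as enzymes and regulators of these pathways, out of 48709 genes in the count files of mouse primary hippocampal neurons. They comprise 18 enzymes of the cholesterol branch, from the acetyl-CoA thiolase Acat2 to the reductase Dhcr7, and 8 enzymes of the fatty acid branch. The other 7 are grouped as regulators: genes for proteins that set the activity of both branches, and Stard4, a sterol carrier gene. RNA came from cultures prepared from the pooled hippocampi of several embryonic day 17 embryos of CD1 mice, an outbred strain. At day in vitro 10 the cultures received lipid nanoparticles carrying either a miR-148a-3p mimic (6 samples) or a negative control oligonucleotide (6 samples), and they were harvested 48 h later, at day in vitro 12. Both groups also received ApoE4, a lipid-carrying apolipoprotein, in the medium. No untreated culture was included, so every difference below is between mimic and control particles.

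Cells build cholesterol and fatty acids from the same precursor, acetyl-CoA. The sterol branch runs through mevalonate, squalene and lanosterol, and the fatty acid branch through malonyl-CoA to palmitate, which is then elongated and desaturated. Both are driven by the SREBP transcription factors, which are held in the endoplasmic reticulum by SCAP and the INSIG proteins while sterols are plentiful and are released by cleavage in the Golgi when sterols run short. The brain makes its own cholesterol, in astrocytes and oligodendrocytes as well as in neurons, and miR-148a is known from liver for acting on genes of cholesterol uptake and efflux.

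The sequences of the oligonucleotides are shown first because the seed, bases 2 to 8 of a microRNA, is the part that pairs with target RNA. The seed is in capitals, and both sequences are those of the study's list of reagents. The mimic was identical to the RefSeq entry of mouse miR-148a-3p, at chr6:51269829-51269850 in GRCm38.p6. The submitters' design text calls the control a small interfering RNA, and statements about its sequence hold for the listed oligonucleotide.
miR-148a-3p mimic: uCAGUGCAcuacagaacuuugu
negative control: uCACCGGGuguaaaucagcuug

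A site for the mimic was counted in a 3′ UTR where the transcript held TGCACTG (the match to bases 2 to 8) or GCACTGA (the match to bases 2 to 7 followed by an A), on the gene's own strand. Of the 33 members, 7 held at least 1 such match (21.2%), against 21.9% of the 15082 tested genes with an annotated 3′ UTR. The members held 11 matches between them, 3 in Sc5d, 2 each in Hmgcs1 and Lss, and 1 each in Idi1, Insig1, Srebf1 and Fasn. Idi1 alone among the members carried the 8-base form TGCACTGA, which joins both. For each of the 7 genes, the match nearest the stop codon is given with its surroundings in GRCm38, with the match in capitals and each sequence on the strand of its gene.
Insig1, chr5:28077452-28077473, plus strand: caaagtcagggttcTGCACTGc
Idi1, chr13:8890786-8890807, plus strand: tatcccatatataTGCACTGAt
Srebf1, chr11:60199797-60199818, minus strand: gaaattgcagaggcTGCACTGg
Sc5d, chr9:42254013-42254034, minus strand: gctcagagtcacacTGCACTGt
Hmgcs1, chr13:119707086-119707107, plus strand: gcagaaagatgctgGCACTGAg
Lss, chr10:76554489-76554510, plus strand: tctgtagtgctttcTGCACTGg
Fasn, chr11:120807232-120807253, minus strand: gcggaccgcaccggGCACTGAc

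The 12 libraries held between 20018234 and 37149112 counted reads, and totals, detected genes and the share of mitochondrial reads did not differ detectably between the groups (two-sided exact permutation tests, p = 0.515, 0.816 and 0.957). Control replicates 1 and 2 were the shallowest libraries and had the lowest mitochondrial shares, 2.15% and 2.49% against 2.76 to 3.66% in the other 10. Neuronal transcripts were abundant in every library: the 12 neuronal markers summed to between 7724 and 8463 counts per 1000000 (CPM, relative to library totals scaled by the trimmed mean of M-values) in control and between 7765 and 8098 CPM in mimic libraries, with 2 called higher and 3 lower. Over all tested genes 22.2% were called, 11.5% higher and 10.7% lower, and the marker counts here are to be read against those shares. The cultures also held glial RNA that moved with the treatment. The summed level of 12 astrocyte markers was 5397 to 5930 CPM in control and 6641 to 7082 CPM in mimic libraries, with 9 of the 12 called higher, among them the glutamate transporter Slc1a3 (log2 fold change 0.99), and 1 called lower, the filament gene Gfap (-0.90). The 12 oligodendrocyte lineage markers summed to 431 to 726 CPM in control and 811 to 1005 CPM in mimic libraries (5 higher, 2 lower), and 10 of 10 markers of cycling cells were called higher, with sums of 243 to 281 CPM and 462 to 494 CPM. Mesenchymal markers summed to 204 to 272 CPM in control and 104 to 232 CPM in mimic libraries (1 of 10 higher, 2 lower), and microglial markers to 25.2 to 29.6 CPM and 23.9 to 39.3 CPM (0 of 12 higher, 3 lower). Whole cultures were lysed, so a change in the number of cells of a type and a change of RNA per cell cannot be told apart, and the part of these shifts in the values below was not tested.

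All 33 members passed the filter on low counts, and the lowest of them, Idi1, averaged 153 reads per library. The transcripts spanned a wide range of abundance. Per kilobase of annotated exon, Scd2 (a stearoyl-CoA desaturase) stood highest in control cultures with 415 CPM, followed by Hmgcs1 (the synthase that makes HMG-CoA) with 361 CPM and Fads2 (the delta-6 desaturase) with 118 CPM. Acly, Sqle, Scd1, Fads1 and Fasn followed between 68.3 and 82.2 CPM per kilobase, and Fdps, Acaca and Idi1 were lowest, between 1.51 and 3.94 CPM per kilobase. The levels of these last 3 are uncertain. In Fdps and Acaca the annotated exons (4208 and 17074 bases) exceed the longest protein-coding transcript (1382 and 9513 bases), which lowers the level per kilobase. The 3 mRNAs are also not unique among annotated transcripts, and 50 bases was the read length. Of the 50-base words, 86.4% in Fdps, 52.6% in Acaca and 30.5% in Idi1 were also found in transcripts of other genes. The same held for 45.9% of Acat2 (shared with Acat3 and Tcp1) and 30.7% of Fdft1 (shared mainly with Ctsb, whose exons overlap it on the opposite strand).

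After the mimic, 7 of the 33 members were higher and 1 was lower at an adjusted p under 0.05 (edgeR quasi-likelihood test, adjusted over all 18847 tested genes). The higher genes were the sterol demethylase Cyp51, the reductase Hsd17b7, the site-1 protease gene Mbtps1, Insig1, the sterol carrier Stard4 and the desaturases Fads1 and Fads2, and the lower gene was Acly, which makes cytosolic acetyl-CoA from citrate. These 8 are 24.2% of the members, against 22.2% of all tested genes (11.5% higher and 10.7% lower) and 28.4% of tested genes with a mean of at least 100 counts, so the members were called about as often as genes in general. The changes were small. Of the 25 members not called, 18 had a log2 fold change that moved by over 1.5 times or changed sign (7 of them) when 1 of the 12 libraries was left out. None of the 8 called members did. A value near 0 is easily moved by that much and is rarely called, so this contrast does not show how stable the calls are. The called members changed by between 0.14 and 0.27 on the log2 scale in either direction, the median over the 33 was 0.05, and the bound farthest from 0 of any member's 95% interval was 0.35. Over all tested genes the median was -0.01, and 90% of genes lay between -0.47 and 0.50. In 5 members (Cyp51, Mbtps1, Stard4, Scd2 and Fads1) the 2 groups of libraries did not overlap, against 13.3% of all tested genes. Nothing in the labels says whether the samples are separate preparations, so p-values measure the spread between these samples, which may be partly technical.

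**Figure D1:**
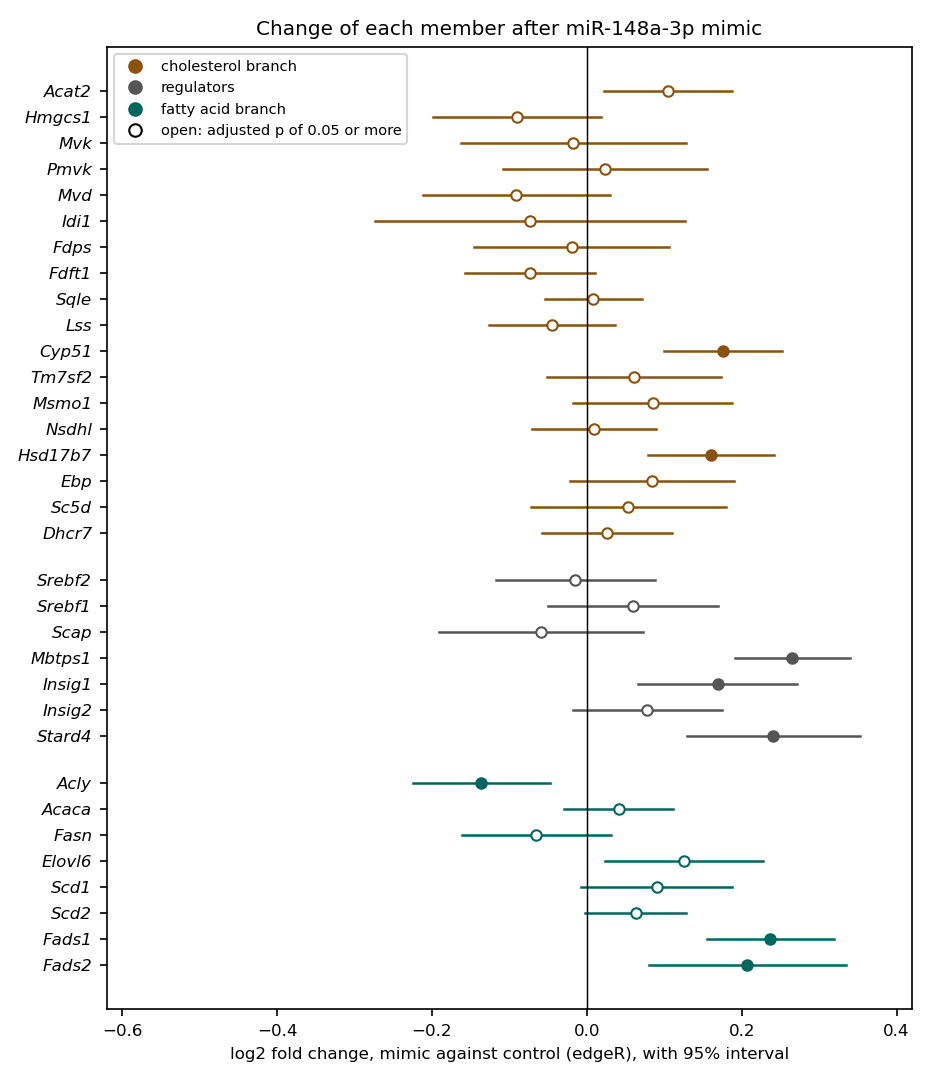
Log2 fold change of each of the 33 members in mimic against control cultures (horizontal axis, edgeR, 6 against 6 libraries), with 95% intervals as lines, ordered along the pathway and coloured by branch; filled points have an adjusted p under 0.05. The 7 filled points on the right lie between 0.16 and 0.27 and the 1 on the left, Acly, at -0.14.

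In the cholesterol branch, 2 of 18 enzymes were called, both higher, and the branch median was 0.02. The first enzymes of the branch gave opposite signs. Acat2, which condenses acetyl-CoA, had a log2 fold change of 0.10 (SE 0.039, adjusted p = 0.0653), and all 6 mimic libraries lay above the control median. Hmgcs1 had -0.09 (SE 0.051, adjusted p = 0.246), with all 6 mimic libraries below the control median but inside the control range of 1469 to 1852 CPM. None of the 5 enzymes from mevalonate to farnesyl diphosphate was called: the kinases Mvk and Pmvk had -0.02 and 0.02, the decarboxylase Mvd -0.09, the isomerase Idi1 -0.07 and the synthase Fdps -0.02. All 5 values moved with single libraries. Idi1 had -0.14 without mimic replicate 3 and -0.025 without mimic replicate 4. Without control replicate 1 Mvk had 0.06, Fdps 0.03 and Mvd -0.03, Pmvk had -0.01 without mimic replicate 6, and without control replicates 1 and 2 together Mvk was called higher (0.09, adjusted p = 0.0434). The 3 enzymes from squalene to lanosterol were not called either, with -0.07 for the squalene synthase Fdft1, 0.01 for the epoxidase Sqle and -0.04 for the cyclase Lss. Without control replicate 1 Fdft1 had -0.05 and Lss -0.02, and Sqle had -0.0007 without control replicate 3. Sqle, a rate-controlling enzyme of the branch, was measured closely: its 95% interval ran from -0.05 to 0.07, and its libraries spanned 422 to 458 CPM in control and 430 to 450 CPM in mimic cultures.

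The 8 enzymes that turn lanosterol into cholesterol had positive log2 fold changes, from 0.01 to 0.18, and 2 of them passed the test. The sign of Nsdhl turned without control replicate 1 (-0.0062) or mimic replicate 6 (-0.0097), and those of Nsdhl and Sc5d turned without control replicates 1 and 2 (-0.0019 and -0.01). Sc5d dropped to 0.02 without control replicate 2 alone and Dhcr7 to 0.0054 without control replicate 6. Cyp51, which removes the first methyl group of lanosterol, had a lowest, median and highest level of 250, 265 and 272 CPM in control and of 281, 302 and 311 CPM in mimic libraries. Every mimic library was above every control library, a rise of 13% (log2 fold change 0.18, SE 0.036, adjusted p = 0.0016). Hsd17b7, the ketoreductase that acts with the demethylating enzymes, had 68.1, 70.4 and 76.9 CPM in control and 76.0, 79.8 and 82.5 CPM in mimic libraries. Here control replicate 4 reached into the mimic range, 4 of 6 mimic libraries were above all controls, and the rise was 11.8% (0.16, SE 0.038, adjusted p = 0.00522). The other 6 did not pass: the methyl oxidase Msmo1 (0.08), the isomerase Ebp (0.08), the reductase Tm7sf2 (0.06), the desaturase Sc5d (0.05), and Dhcr7 and the dehydrogenase Nsdhl (0.03 and 0.01). Their adjusted p values ran from 0.245 for Msmo1 to 0.897 for Nsdhl in the edgeR test.

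Of the 7 regulators 3 were higher and none was lower, and the SREBP genes themselves were not among those called. Srebf2, which encodes the factor for sterol genes, had a log2 fold change of -0.01 (95% interval -0.12 to 0.09) and Srebf1, for fatty acid genes, 0.06 (-0.05 to 0.17). Scap, the escort of the SREBPs to the Golgi, had -0.06. Neither sign was stable: without control replicate 1 alone Srebf2 had 0.03 and Scap 0.0038, and Srebf2 also turned without control replicate 2 (0.0056) or mimic replicate 3 (0.0010), with no call in any of these. Mbtps1, the protease that makes the first cut in the SREBPs there, had the largest log2 fold change and the smallest adjusted p of the 33 members. It had 89.9, 95.1 and 101 CPM (lowest, median, highest) in control and 107, 115 and 117 CPM in mimic libraries. The groups did not overlap, and the rise was 20.2% (0.27, SE 0.035, adjusted p = 2.5e-05).

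Insig1, one of the anchors that keep SCAP in the endoplasmic reticulum and itself a sterol-responsive gene, had 108, 113 and 130 CPM in control and 120, 131 and 137 CPM in mimic libraries. Control replicate 1, the highest control, lay inside the mimic range, and the rise was 12.4% (0.17, SE 0.049, adjusted p = 0.0183). Its relative Insig2 had 0.08 (adjusted p = 0.259). Stard4, a soluble carrier that moves sterol between membranes, had 92.4, 106 and 114 CPM in control and 117, 124 and 130 CPM in mimic libraries. The groups did not overlap and the rise was 18.2% (0.24, SE 0.053, adjusted p = 0.00275), although the control libraries were themselves spread, with replicates 1 and 2 lowest. Without those replicates the log2 fold change of Stard4 was 0.17 and that of Insig1 0.19, and both were still called.

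Of the 3 fatty acid genes that lead to palmitate, 1 was called. Acly was the only member called lower. It had 411, 424 and 488 CPM in control and 376, 396 and 412 CPM in mimic libraries, with 5 of 6 mimic libraries below all controls, and the level fell by 9.02% (log2 fold change -0.14, SE 0.042, adjusted p = 0.0259, edgeR). This call was close to the threshold: leaving out control replicate 2 or mimic replicate 3, 4 or 5 raised the adjusted p to 0.0591, 0.0699, 0.0602 or 0.0542, and without control replicates 1 and 2 the log2 fold change was -0.08, still called at an adjusted p of 0.0214. The next enzymes, the carboxylase Acaca (0.04) and the synthase Fasn (-0.07), were not called, and Fasn was at 0.0033 without control replicates 1 and 2.

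All 5 genes of elongation and desaturation had positive log2 fold changes, and 2 were called. Fads1, the delta-5 desaturase of polyunsaturated fatty acid synthesis, had 317, 334 and 368 CPM in control and 384, 391 and 415 CPM in mimic libraries. No mimic library overlapped a control, and the rise was 17.9% (0.24, SE 0.039, adjusted p = 0.000229). Fads2, which acts before Fads1 in the same pathway, had 356, 371 and 479 CPM in control and 428, 446 and 472 CPM in mimic libraries. Its highest control, replicate 1, stood above every mimic library while the other 5 controls stood below them all (386 CPM at most), and the rise was 15.4% (0.21, SE 0.060, adjusted p = 0.0192), or 0.28 on the log2 scale without control replicate 1.

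Scd2 did not overlap between the groups (2102 to 2328 CPM in control and 2349 to 2385 CPM in mimic libraries), yet it differed by only 0.06 on the log2 scale and did not pass the test (SE 0.031, adjusted p = 0.169). Scd1, its neighbour on chromosome 19, had 0.09 (adjusted p = 0.189), which was 0.13 and called without control replicate 1 and 0.06 (adjusted p = 0.338) without control replicate 2. The elongase Elovl6 had 0.13 (adjusted p = 0.0755) with 5 of 6 mimic libraries above all controls, and this value dropped to 0.05 without control replicates 1 and 2.

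**Figure D2:**
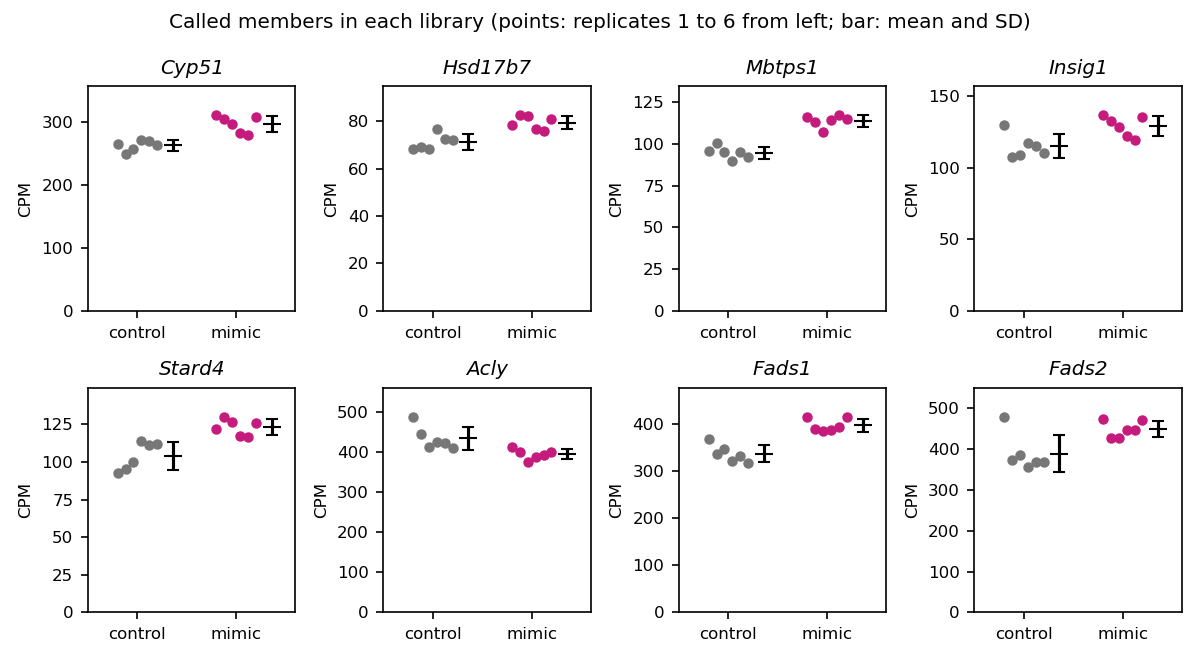
Level in CPM (vertical axes, from 0) of the 8 called members in each control (grey) and mimic (magenta) library, replicates 1 to 6 from left to right in each group, with the group mean and SD in black. The groups are apart in Cyp51, Mbtps1, Stard4 and Fads1, and the grey point at 479 CPM in Fads2 and the one at 130 CPM in Insig1 are both control replicate 1.

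Side by side, the fatty acid branch had 3 of 8 members called and a median log2 fold change of 0.08, the regulators 3 of 7 and 0.08, and the cholesterol branch 2 of 18 and 0.02, against 22.2% called and a median of -0.01 over all tested genes. Without control replicates 1 and 2 together, the medians of the fatty acid and cholesterol branches were close, at 0.05 and 0.04. With 1 library left out at a time, the fatty acid median stayed above the cholesterol median. The 2 were 0.08 and 0.05 without control replicate 1, where the cholesterol median was highest, and 0.05 and 0.02 without control replicate 2. The cholesterol median was lowest without mimic replicate 6 (0.0011), where the fatty acid median was 0.08. Averaged over the 18 cholesterol genes and set against the control mean, the libraries ran from -0.06 to 0.07 in control and from -0.03 to 0.07 in mimic cultures on the log2 scale, so the branch as a whole overlapped fully. Averages over the 8 fatty acid genes ran from -0.04 to 0.09 in control and from 0.05 to 0.11 in mimic cultures and overlapped too. Within that branch, averages over the 3 genes that lead to palmitate ran from -0.06 to 0.08 in control and from -0.11 to -0.01 in mimic cultures. Averages over the 5 elongation and desaturation genes ran from -0.11 to 0.10 in control and from 0.12 to 0.18 in mimic cultures. These did not overlap, but control replicate 1 (0.0993) lay close to mimic replicate 4 (0.1226), and the 5 genes include the called Fads1 and Fads2. Averages over the 8 genes after lanosterol ran from -0.05 to 0.05 and from 0.02 to 0.13. Whether the branches differ was not tested, since the genes of a branch share their libraries and are not replicates.

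The members varied less between mimic than between control libraries, with a median SD of log2 CPM of 0.058 and 0.106, as did tested genes with a mean of at least 100 counts (0.065 and 0.113). Control replicate 1 was the highest control in 19 members and the lowest in 8. It was high in the mevalonate genes Mvk, Pmvk, Mvd and Fdps, in Srebf1, Srebf2 and Scap and in Fads2, and low in Hmgcs1, Msmo1, Hsd17b7 and Stard4. Averaged over the 5 genes from mevalonate to farnesyl diphosphate, control replicate 1 stood 0.24 above the control mean, while the other controls lay between -0.11 and 0.02. In the fit without control replicates 1 and 2, 11 members were called higher and 2 lower. The genes gained were Mvk, Tm7sf2 (0.13), Srebf1 (0.13) and Scd1 (0.09) on the higher and Hmgcs1 (-0.16) on the lower side. The number of all tested genes called also grew, from 4182 to 5950.

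**Figure D3:**
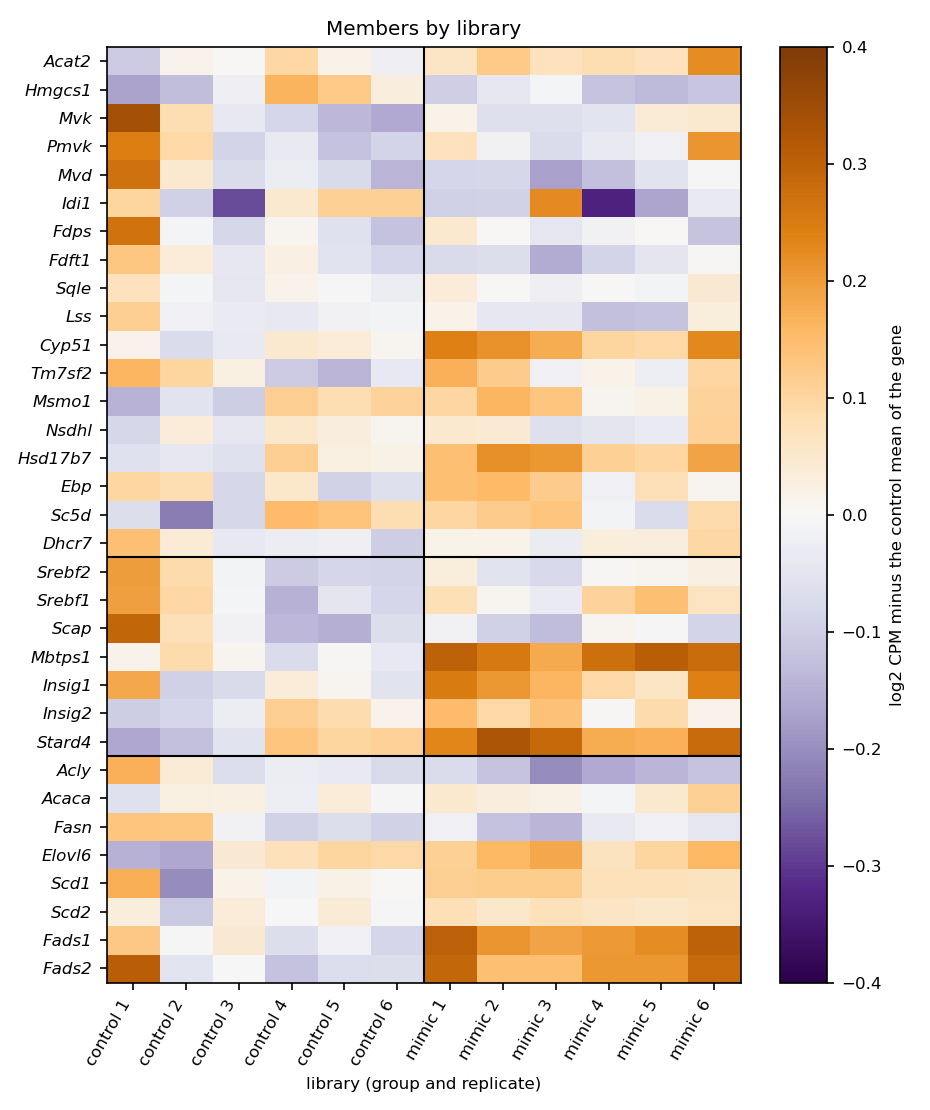
Log2 CPM of each member in each library minus the mean of its 6 control libraries (colour scale, orange above and purple below), with genes in pathway order, horizontal lines between the cholesterol branch, the regulators and the fatty acid branch, and a vertical line between control and mimic. Control replicate 1 is orange in most mevalonate genes and purple in Hmgcs1, Msmo1 and Stard4, and Mbtps1, Fads1 and Stard4 are orange in all 6 mimic libraries.

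The 7 members with a 3′ UTR match to the mimic seed, whose sequences are given above, had a median log2 fold change of -0.04, and the 26 without one had 0.06. The median of the 7 is the value of Lss, which was -0.02 without control replicate 1. Over all tested genes with an annotated 3′ UTR the medians were -0.04 for the 3306 with a match and 0.0013 for the 11776 without. Of the 7 members, none was called lower and 1, Insig1, was called higher, where 19.2% of all genes with a match were lower and 11.6% higher, so counts this small do not set the members apart. The value of Idi1, with the 8-base match, was -0.07 (SE 0.095) and that of Sc5d, with 3 matches, 0.05 (SE 0.060). Fasn, Hmgcs1 and Lss had -0.07, -0.09 and -0.04, and Srebf1 had 0.06. Acly, the member called lower, held no match in its annotated 3′ UTR. Matches to the seed of the listed control oligonucleotide were found in Acaca and Stard4.

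Promoters were read from RefSeq (GRCm38.p6, 250 bases before to 50 bases after a start site) for the 26 members with an entry. Motifs were searched on both strands. CCAAT, the letters bound by the factor NF-Y, which acts together with the SREBPs at sterol genes, was found in 20 of 26 members (76.9%), against 41.1% of 27025 genes with an entry. It was found in 14 of the 15 cholesterol genes with an entry (all but Acat2), in 4 of 6 regulators and in 2 of 5 fatty acid genes. The sterol regulatory element in the form TCACNCCAC was found in 1 member, Hmgcs1, against 1.44% of all genes, and the E-box CACGTG in 5 members (19.2%) against 8.09%. These are matches of letters and say nothing of binding in these cells. The promoters shown are Hmgcs1 for its element and the 2 called cholesterol genes, Cyp51 and Hsd17b7, for the CCAAT match nearest their starts, on the strand of the gene (plus for Hmgcs1, minus for the others) and with the match (or its reverse complement ATTGG) in capitals.
Hmgcs1, sterol regulatory element, chr13:119690206-119690230: tcaccgtcTCACCCCACttcccagg
Cyp51, CCAAT, chr5:4104714-4104734: gtccgccaCCAATctggtcct
Hsd17b7, ATTGG, chr1:169969205-169969225: gagccttgATTGGtcgaggtg
Of the called members with a promoter entry, Cyp51, Hsd17b7, Insig1 and Acly held CCAAT, and Mbtps1 and Fads2 did not. Among members not called, 16 of the 20 with an entry held it.

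Several genes next to these pathways had larger changes than any member, while others gave none. The counts below stand against 11.5% of all tested genes called higher and 10.7% called lower. The 4 further enzymes tested of the cholesterol branch and the 9 genes of the isoprenoid side branch gave no call in either direction in edgeR, with 1 and 2 genes at an unadjusted p under 0.05. Of 12 other genes of SREBP control 2 were higher and none was lower, a share of 16.7% against 22.2% of all tested genes. The larger change was that of Tmem97, a sterol-regulated membrane protein gene (0.31, adjusted p = 2e-04), whose 3′ UTR held a match to the seed of the control oligonucleotide. Of 15 tested genes of sterol uptake and transport, 5 were higher and 2 lower. The largest changes were those of Gramd1c, a sterol transporter at membrane contacts (-0.40, adjusted p = 0.00399), Npc1, which exports cholesterol from lysosomes (0.36, adjusted p = 0.000196), and the lipoprotein receptor Vldlr (0.28, adjusted p = 0.000174).

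Of 15 tested genes of sterol efflux and turnover, 3 were higher and 2 lower. Abca1, the transporter that exports cholesterol to lipoproteins, had 143, 163 and 167 CPM (lowest, median, highest) in control and 107, 124 and 136 CPM in mimic libraries. The groups did not overlap (-0.37, SE 0.062, adjusted p = 0.000276), and its 3′ UTR held 3 matches to the mimic seed and 1 to that of the control oligonucleotide. The oxysterol receptor gene Nr1h3, also lower (-0.36, adjusted p = 0.0385), and Lcat, the enzyme that esterifies cholesterol on lipoproteins, which was higher (0.42, adjusted p = 0.00968), had at most 2.02 and 7.04 CPM in any library.

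In the wider fatty acid synthesis list, 7 of 27 genes were higher and 3 lower. Thrsp, a lipogenic regulator, gave the largest rise, from 130, 137 and 157 CPM in control to 230, 259 and 277 CPM in mimic libraries (0.89, SE 0.053, adjusted p = 3.1e-09). Scd4 had -0.77 (adjusted p = 4.64e-05) at no more than 4.96 CPM, and the desaturase relative Fads6, with a 3′ UTR match to the control seed, had 0.40 (adjusted p = 0.0098). The 3 Fads genes that lie together on chromosome 19 were all called, but not in 1 direction. Fads1 (chr19:10182888-10196877) and Fads2 (chr19:10062765-10101746) were higher, and the adjacent Fads3 (chr19:10041569-10060110) was lower in all 6 mimic libraries, with 55.9 to 60.6 CPM against 63.6 to 69.6 CPM (-0.17, SE 0.035, adjusted p = 0.00139). In the Scd cluster of the same chromosome Scd1 and Scd2 did not pass, Scd3 had 0.00 at a mean of 18.1 reads per library, and Scd4 was lower. Fads3 and the Scd genes were singled out after their values were seen, and the Scd1 and Scd2 transcripts share 4.66% and 4.01% of their 50-base words with other genes, mainly of their own family.

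**Figure D4:**
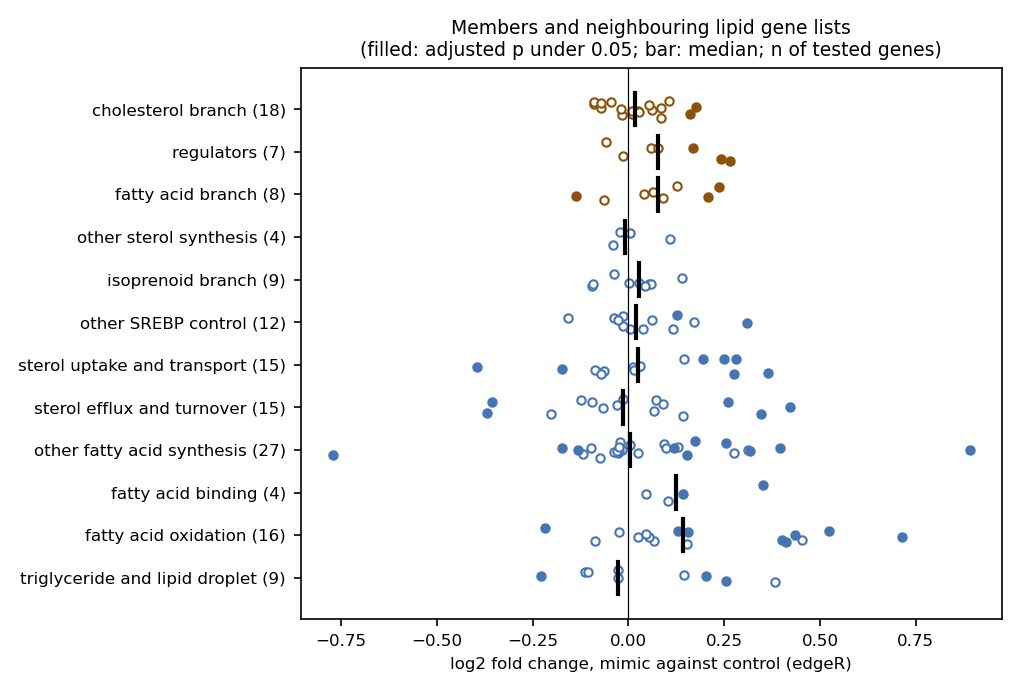
Log2 fold change in mimic against control cultures (horizontal axis, edgeR) of each tested gene in the 3 groups of members (brown) and in 9 neighbouring lists (blue), with the number of tested genes in brackets, black bars for medians and filled points for an adjusted p under 0.05; the vertical position of points within a row carries no meaning. The members lie between -0.14 and 0.27, and the blue points farthest from 0 are Thrsp at 0.89 and Scd4 at -0.77.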

How the data were processed

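The authors aligned single-end 50-base reads to mm10 with STAR (version 2.5.2b in the submitters' processing notes) and counted them per gene with featureCounts of Subread (1.5.1), after quality control with FastQC (0.11.5). The annotation release and strand setting are not given in the sources used here. The deposited files hold raw counts, 1 file per library. A deposited table of normalized values, a signal equal to counts divided by 1 size factor per library, served only as an alternative.

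Genes with at least 5 counts in 6 of 12 libraries entered edgeR (4.0.16, in R 4.3.3) and its quasi-likelihood F-test, with TMM scaling and Benjamini-Hochberg adjustment over 18847 genes, and called at an adjusted p under 0.05. The procedure was tested on simulated data. No chance test over the list was made. Alternatives were DESeq2 (1.42.0), limma-trend (3.58.1) on log2(normalized value + 1), other size factors and filters, a replicate block and leaving out libraries. This filter is the study's own, whose test was DESeq2. No 2 libraries of the same group agreed within sampling noise, with a chi-square per degree of freedom of at least 1.73 in control and 2.07 in mimic pairs. Pairs across groups were not compared.

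Members and lists were chosen with earlier results of these data known. All members are named, with library values for called ones. Of each wider list up to 3 called genes with the largest change are named, and of each cell type list at most 2. An item of a wider list is not reported here.

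Gene models came from GENCODE M21 (GRCm38), taking the longest annotated 3′ UTR per gene. Control replicates 1 and 2, shallowest and lowest in mitochondrial reads, were left out together as an alternative. Strand was not assumed, so Hmgcs1, Idi1, Fdft1, Lss, Cyp51, Srebf1, Scap and Elovl6 may hold reads of overlapping genes on the other strand, as may Tm7sf2 of Vps51 on its own strand.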

Additional observations from a re-analysis of the deposited data

Results flagged for a closer look

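In each group of 6 libraries, the highest and lowest values were compared with the nearest other value, and 4 of 72 groups of values held a library that stood apart by more than the 95% limit for 6 samples of Dixon's gap test, where chance gives about 3.6. Control replicate 1 held 3 of the 4. Fdps stood at 19.8 CPM in control replicate 1, against 15.2 to 16.6 CPM in the other controls. Lss stood at 137 CPM in the same library, against 123 to 125 CPM. Fads2 stood at 479 CPM there, against 356 to 386 CPM. Scd2 stood at 2102 CPM in control replicate 2, against 2256 to 2328 CPM.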

How the results depend on the processing

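Under DESeq2, DESeq2 size factors, limma-trend on the deposited normalized values, both other filters and the replicate block, 7 or 8 members were called higher and 1 lower, and the 7 members called higher remained so under all 19 alternatives, with adjusted p values of at most 0.0494 (Insig1) and 0.0472 (Fads2) for those nearest the threshold (each alternative with its own test). The number of members called lower ranged from 0 to 2 when 1 library was left out: it was 2 without control replicate 1, with Hmgcs1 added, and 0 without control replicate 2 or mimic replicate 3, 4 or 5. Without control replicates 1 and 2 together, 11 members were called higher and 2 lower, the median of the regulators was 0.13, and Mvk turned from -0.02 to 0.09 and was called. Fdps (0.04), Srebf2 (0.06), Scap (0.04), Fasn (0.0033), Nsdhl (-0.0019) and Sc5d (-0.01) also changed sign there and were not called, and the cause was not tested. Acat2 was called higher under DESeq2 (0.11, adjusted p = 0.0335) and without control replicate 4 (0.12), Elovl6 without control replicate 5 (0.15) and Scd1 without control replicate 1 (0.13). Scaling moved the median of all genes by at most 0.0034 on the log2 scale. The replicate numbers did not pair the samples: same-numbered libraries deviated together with correlations from -0.038 to 0.093, and no control correlated best with its own number. With the replicate block, 3659 of the tested genes were called in place of 4182, with 7 members higher and 1 lower. The widest 95% interval in the cholesterol branch was that of Idi1, the member with the fewest reads (153 per library), from -0.27 to 0.13.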

Other observations

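Genes that burn or store fatty acids were measured beside those that make them. Of 16 genes of fatty acid oxidation, 7 were higher and 1 was lower after the mimic, with a median log2 fold change of 0.14, where 11.5% of all tested genes were called higher and 10.7% lower. The largest changes were those of 3 mitochondrial dehydrogenases, Hadh (0.71, adjusted p = 3e-09, edgeR), Acads (0.52, adjusted p = 1.53e-05) and Acadl (0.44, adjusted p = 3.12e-05). Hadh spanned 25.2 to 29.8 CPM in control and 44.1 to 47.4 CPM in mimic libraries, without overlap, and its 3′ UTR held a match to the seed of the control oligonucleotide. Astrocyte markers and markers of cycling cells were higher in the same libraries, and their part in these values was not tested.

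Of the 4 genes of fatty acid binding, 2 were higher, Fabp3 (0.35, adjusted p = 0.00311) and Dbi (0.14, adjusted p = 0.00295). Of 9 genes of triglycerides and lipid droplets, 2 were higher and 1 was lower: the lipase Pnpla2 (0.25, adjusted p = 0.00281) and the droplet coat gene Plin3 (0.20, adjusted p = 0.0271) rose, and Gpam, which starts glycerolipid synthesis, fell (-0.23, adjusted p = 0.000314). Plin3 and Gpam each held a 3′ UTR match to the mimic seed.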
